A study of Arabidopsis thaliana with 24 samples.

Results

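The transcripts of 10 autophagy genes of Arabidopsis thaliana were followed in roots after phosphate (Pi) was withdrawn: 8 genes of the ATG8 family (ATG8B to ATG8I), ATG18A and ATG7. They were taken by locus, and each of the 10 loci had 1 probe set that named it alone, so that 10 of 22746 probe sets tested, or 10 of 16928 genes named by such probe sets, are described. The loci are AT4G04620 (ATG8B), AT1G62040 (ATG8C), AT2G05630 (ATG8D), AT2G45170 (ATG8E), AT4G16520 (ATG8F), AT3G60640 (ATG8G), AT3G06420 (ATG8H), AT3G15580 (ATG8I), AT3G62770 (ATG18A) and AT5G45900 (ATG7). Genome coordinates are not used here.

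Hydroponically grown plants, 30 days after sowing, were moved to nutrient solution with 1.5 mM Pi (plus Pi) or with none (minus Pi), and whole roots were taken 0, 1, 6 and 24 h later, from about 20 plants per time. The 8 groups held 3 arrays each, 1 from each of 3 runs of the experiment, so an array measures the pooled roots of one run. No genotype is named in the labels used here, and all plants had grown with Pi, under 10 h of light a day, until the transfer, which began 1 h into the light. The minus Pi group at 0 h therefore had no time without Pi, the harvest at 6 h fell later in the light period than that at 0 h, and the harvest at 24 h fell at the same hour as 0 h.

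Autophagy carries cytoplasm and organelles to the vacuole inside a double-membraned autophagosome, and plants rely on it to recycle amino acids, lipids and carbon when nutrients or sugar run short. ATG8 is a small ubiquitin-like protein that is attached to the lipid phosphatidylethanolamine on the growing membrane, where it helps the membrane expand and binds cargo receptors. ATG7 is the E1-like enzyme that activates ATG8, and ATG12, for this conjugation, and ATG18A is a WD40-repeat protein that binds phosphoinositides and is needed to form autophagosomes. In Arabidopsis the ATG8 proteins fall into a clade with ATG8A to ATG8D, one with ATG8E to ATG8G and one with ATG8H and ATG8I, whose precursors end at the glycine that is joined to the lipid and lack the tail that the protease ATG4 removes from the others.

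Levels are log2 values as deposited, on which a difference of 1 is a doubling, and they are compared within a gene only, since probe sets differ in brightness. Array medians lay between 6.34 and 6.45, and the leading principal component (37.6% of the variance) mainly separated the 3 runs. The minus Pi response was checked with SPX1, a Pi starvation marker, whose difference between minus Pi and plus Pi roots was -0.40 at 0 h, 0.22 at 1 h, 1.63 at 6 h and 3.17 at 24 h. Differences were tested with limma (a linear model with moderated variances on all 24 arrays), and "adjusted p" is Benjamini-Hochberg over all 22746 probe sets, called at 0.05. The experiment number pairs the arrays, and results of the same fit with experiment as a block are given where they change a call. An exact permutation test of 3 arrays against 3 cannot go below p = 0.1, and the calls below therefore depend on variances shared across genes and groups.

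The 10 genes had their highest group mean in the same group, minus Pi roots at 6 h, as did 22.0% of all probe sets. In 6 of the 10 (ATG8D, ATG8E, ATG8F, ATG8H, ATG18A and ATG7) the 3 arrays of that group lay above all 3 arrays of the group next in order. In ATG8B, ATG8C, ATG8G and ATG8I they overlapped the group next in order, which was minus Pi at 24 h in each. The share of all probe sets with such a gap below their highest group was not counted, so the 6 of 10 has no background beside it. The remaining order differed from gene to gene. Plus Pi at 6 h came second in 4 genes (ATG8D, ATG8E, ATG8F and ATG18A), but it ranked 4 of 8 in ATG8H and 6 of 8 in ATG7. ATG8E was the one gene whose lowest group was minus Pi at 24 h, at 7.96 ± 0.529 (SD, n = 3), although this overlapped the group above it. ATG7 was lowest in minus Pi roots at 1 h, at 7.49 ± 0.135 (SD, n = 3), below every array of the neighbouring group. Most other neighbours in the order overlapped, so ranks 2 to 8 are mostly not separated by more than the spread between arrays.

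**Figure D1:**
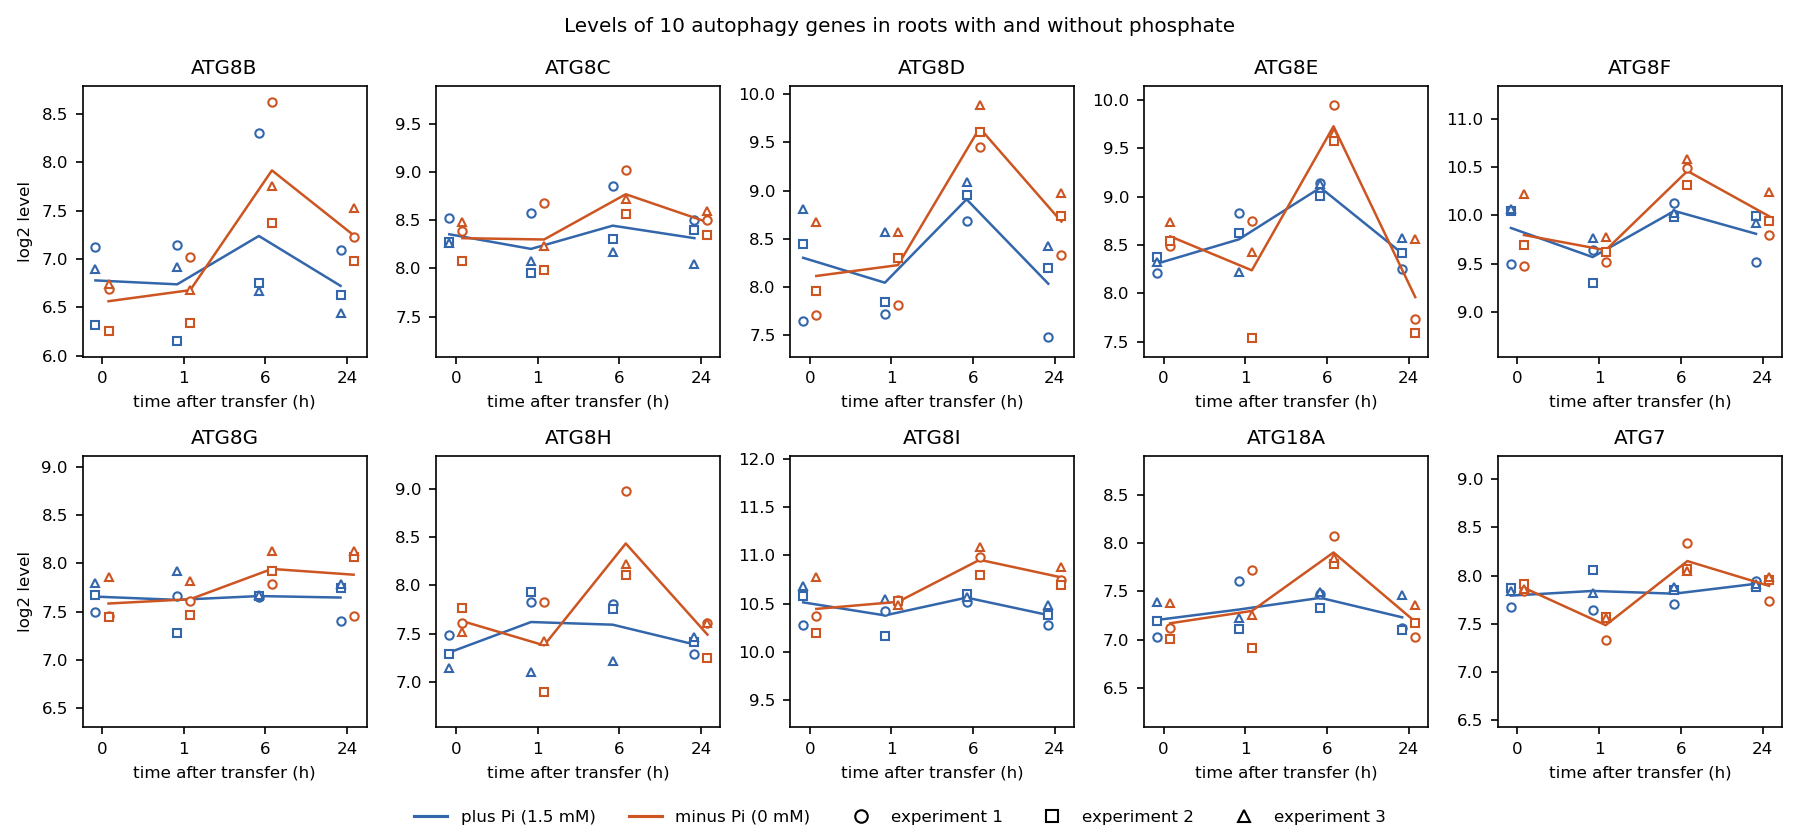
Log2 level of each of the 10 genes (vertical axis, 1 panel per gene, each spanning the same number of log2 units) against time after transfer in h (evenly spaced). Blue is plus Pi and orange minus Pi, marker shapes are experiments 1, 2 and 3, and lines join the means of 3 arrays; the orange mean at 6 h is the highest point of the means in 10 of 10 panels.

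The central comparison was minus Pi against plus Pi at 6 h. All 10 genes read higher without Pi, in 3 of 3 experiments each, with differences from 0.28 (ATG8G) to 0.84 (ATG8H) and a median of 0.44, against a median of -0.02 over all probe sets, of which 45.9% were positive. One of the 10, ATG8H, passed the test, where 3.97% of all probe sets were called higher and 9.65% were called in either direction. With experiment as a block 5 of 10 passed (ATG8D, ATG8H, ATG8I, ATG18A and ATG7), where 9.34% of all probe sets were called higher. The minus Pi arrays lay above the plus Pi arrays without overlap in 8 of 10 genes, all but ATG8B and ATG8C, against 11.0% of all probe sets. These roots also differed in cell type markers, at the same times: the mean level of the 7 measured of 10 root markers was 7.28 (7.15 to 7.41) in minus Pi against 7.89 (7.70 to 8.12) in plus Pi roots at 6 h, and 7.19 against 8.30 at 24 h. The 2 measured of 8 shoot markers, RCA and LHCA1, had a mean of 5.79 without Pi and 6.01 with Pi at 6 h, below the median of the arrays. Single root markers spread unequally over the 24 arrays. IRT1 ran from 3.55 to 9.34 and EXP7 from 5.37 to 8.38, but SHR from 7.71 to 8.30 and SCR from 7.81 to 8.86. The part of these marker shifts in the ATG values was not tested. Whole roots cannot tell apart a change in a cell type's share, in its RNA per cell and in the markers' own regulation.

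Among the ATG8 genes without the C-terminal tail, ATG8H read 8.97, 8.10 and 8.22 in experiments 1, 2 and 3 without Pi at 6 h, and 7.81, 7.75 and 7.22 with Pi. The lowest minus Pi array lay above the highest plus Pi array, with the gap narrowest in experiment 2. ATG8H was thus 1.79-fold higher, a log2 difference of 0.84 (SE 0.254, limma adjusted p = 0.0430, n = 3), by 1.16, 0.35 and 1.00 in the 3 experiments. This call sits near the threshold: it was lost without experiment 1, 2 or 3 (adjusted p = 0.198, 0.131 and 0.194 by limma). It was also lost by limma without the minus Pi 6 h array of experiment 1 (adjusted p = 0.208) or 3 (0.0560), without the plus Pi 6 h array of experiment 1 (0.0561), 2 (0.0817) or 3 (0.162), and when only the 6 arrays compared were fitted (0.149). ATG8I, the other tailless gene, read 10.98, 10.79 and 11.08 without Pi and 10.52, 10.60 and 10.57 with Pi. Its groups did not overlap either, but the difference was smaller, 0.39 (SE 0.134, limma adjusted p = 0.0758, with block 0.0145).

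In the clade of ATG8B, ATG8C and ATG8D, the largest difference was that of ATG8D, which read 9.45, 9.61 and 9.88 without Pi at 6 h and 8.68, 8.95 and 9.09 with Pi. The 3 experiments sat at different heights but gave nearly the same difference, 0.77, 0.66 and 0.79. The mean difference was 0.74 (SE 0.322), which limma did not call without the block (adjusted p = 0.175) and called with it (adjusted p = 0.0011). ATG8B read 8.63, 7.37 and 7.75 without Pi and 8.30, 6.75 and 6.67 with Pi. Its groups overlapped because experiment 1 was high in both media, and the difference of 0.68 (SE 0.394) was not called with or without the block (limma adjusted p = 0.345, with block 0.0634). ATG8C read 9.02, 8.56 and 8.72 without Pi and 8.85, 8.31 and 8.17 with Pi, an overlap of the same form. Its difference was 0.33 (SE 0.207, limma adjusted p = 0.405, with block 0.105).

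In the clade of ATG8E, ATG8F and ATG8G, ATG8E read 9.95, 9.58 and 9.65 without Pi at 6 h and 9.14, 9.00 and 9.13 with Pi. The groups were apart by more than either group's range, with a difference of 0.64 (SE 0.255, limma adjusted p = 0.134, with block 0.0699). ATG8F read 10.49, 10.31 and 10.58 without Pi and 10.13, 9.98 and 10.03 with Pi, again without overlap. Its difference was 0.41 (SE 0.191, limma adjusted p = 0.204, with block 0.0571). ATG8G had the smallest difference of the 10 genes, 0.28 (SE 0.182, limma adjusted p = 0.417, with block 0.151), from 7.78, 7.92 and 8.13 without Pi against 7.65, 7.67 and 7.67 with Pi. None of the 3 genes of this clade was called under either fit, although their arrays did not overlap.

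Outside the ATG8 family, the phosphoinositide-binding ATG18A read 8.08, 7.78 and 7.85 without Pi at 6 h and 7.47, 7.33 and 7.50 with Pi. Every minus Pi array was above every plus Pi array, and the difference was 0.47 (SE 0.177, limma adjusted p = 0.108, with block 0.0367). ATG7, the activating enzyme, read 8.33, 8.07 and 8.05 without Pi and 7.71, 7.85 and 7.88 with Pi. Its difference of 0.34 (SE 0.108, limma adjusted p = 0.0553, with block 0.0193) was carried more by experiment 1, at 0.62, than by experiments 2 and 3, at 0.22 and 0.17. In the authors' deposited table the same contrast had values of 0.0431 for ATG8H, 0.0554 for ATG7 and 0.0760 for ATG8I in the p-value column, which lie next to the adjusted p-values given here and not to the unadjusted ones (0.00381, 0.00563 and 0.00928 by limma). For size, ASN1, an asparagine synthetase gene used as a reference for carbon starvation, differed by 3.44 (SE 0.772, limma adjusted p = 0.00838) between the same arrays.

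**Figure D2:**
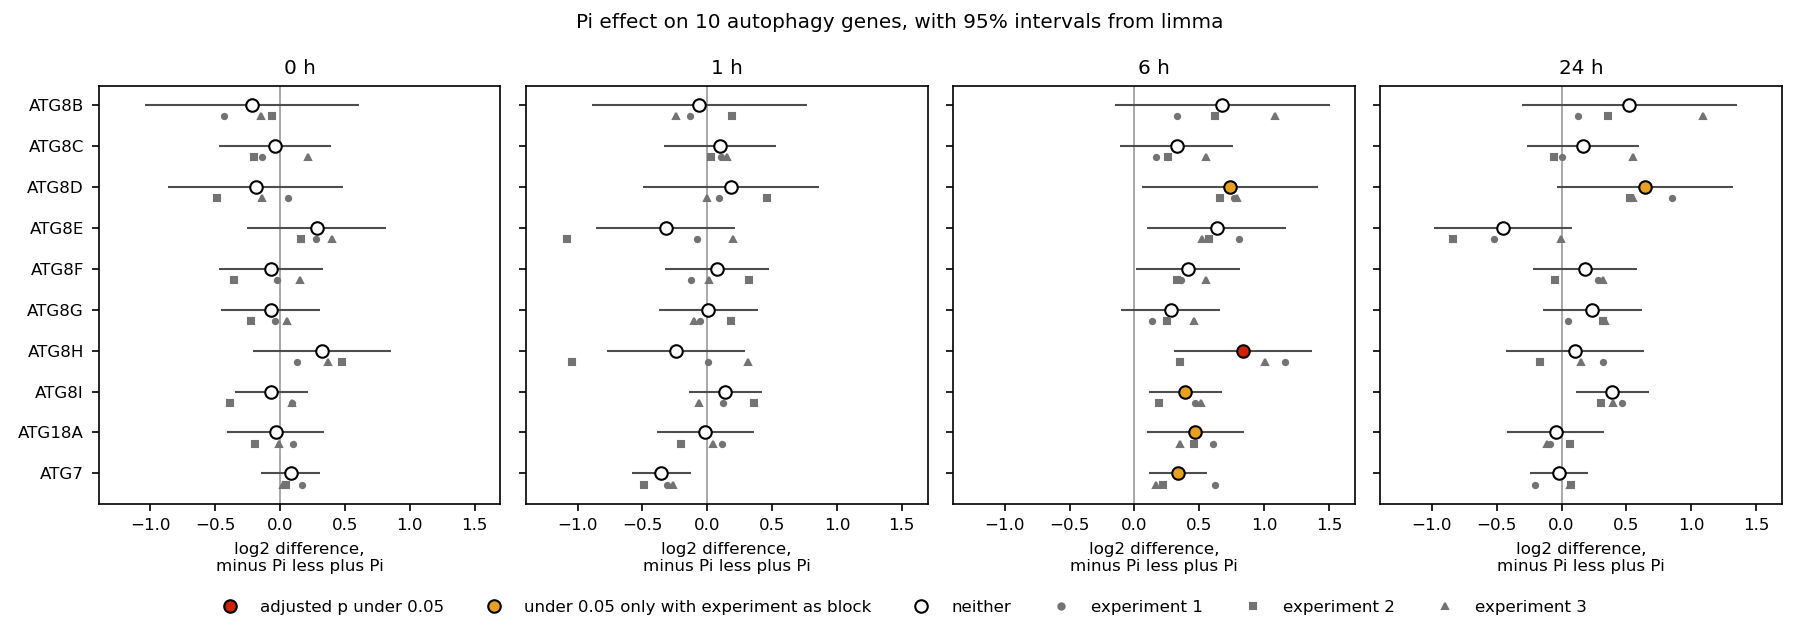
Log2 difference, minus Pi less plus Pi, for each gene (rows) at 0, 1, 6 and 24 h (panels), with the 95% interval from limma as a line through the mean of 3 experiments and each experiment as a small grey marker. At 6 h 10 of 10 means lie right of 0, with ATG8H red (adjusted p under 0.05) and ATG8D, ATG8I, ATG18A and ATG7 orange (under 0.05 only with experiment as a block); at 1 h ATG7 lies left of 0.

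Within minus Pi roots, from 0 h to 6 h, 7 of 10 genes rose (ATG8B, ATG8D, ATG8E, ATG8F, ATG8H, ATG8I and ATG18A), where 8.51% of all probe sets were called higher and 18.4% in either direction. All 10 differences were positive, with a median of 0.70 against -0.02 over all probe sets, and 9 of 10 genes (all but ATG8G) had 6 h arrays above the 0 h arrays without overlap, against 15.4% of all probe sets. With experiment as a fixed block 10 of 10 rose, where 15.3% of all probe sets were called higher, and with a random block 9 of 10, all but ATG8G (limma adjusted p = 0.0549), where 14.3% were. Over the same hours the mean level of the 7 root markers went from 8.13 (8.08 to 8.22) to 7.28 (7.15 to 7.41) in these roots, and its part in the rise was not tested. This comparison uses the same minus Pi 6 h arrays as the one before, so the 2 results are not independent.

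The largest rise was that of ATG8D, from 7.71, 7.96 and 8.67 at 0 h to 9.45, 9.61 and 9.88 at 6 h. It was 2.89-fold, a log2 difference of 1.53 (SE 0.322, limma adjusted p = 0.00274, n = 3), in spite of a spread between experiments at 0 h. ATG8B rose from 6.69, 6.25 and 6.75 to 8.63, 7.37 and 7.75, by 1.35 (SE 0.394, limma adjusted p = 0.0218), most in experiment 1. ATG8E rose from 8.49, 8.54 and 8.73 to 9.95, 9.58 and 9.65, by 1.14 (SE 0.255, limma adjusted p = 0.00416). These 3 genes at least doubled, each in 3 of 3 experiments or, for ATG8E, in 2 of 3 with a difference of 0.92 in experiment 3.

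ATG8H rose from 7.61, 7.76 and 7.51 to its 6 h levels by 0.80 (SE 0.254, limma adjusted p = 0.0335), and ATG18A from 7.12, 7.01 and 7.38 by 0.73 (SE 0.177, limma adjusted p = 0.00715). ATG8F rose by 0.66 (SE 0.191, limma adjusted p = 0.0208) and ATG8I by 0.51 (SE 0.134, limma adjusted p = 0.0128). The other 3 genes had the smallest differences, 0.45 for ATG8C (limma adjusted p = 0.147, with block 0.0174), 0.36 for ATG8G (0.203, with block 0.0492) and 0.28 for ATG7 (0.0841, with block 0.0390). The count of 7 depended on which arrays were fitted. Without all arrays of experiment 1, 2 or 3 it was 2, 1 and 5. With 1 array left out, the count was 3 without the minus Pi 0 h array of experiment 1 and 3 without that of experiment 2. It was 4 without the minus Pi 6 h array of experiment 1. Such fits hold fewer arrays, and the share of all probe sets called in them is not given here. ATG8D and ATG18A lost their calls in 1 of 18 alternatives each, without experiment 2 (limma adjusted p = 0.138 and 0.0936), and ATG8E in 1, without experiment 1 (0.0785). ATG8B, ATG8F, ATG8H and ATG8I each lost theirs without either of those 2 arrays at 0 h (limma adjusted p = 0.0529 to 0.129).

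In plus Pi roots, which went through the same transfer, none of the 10 genes was called at 6 h against 0 h by limma, where 2.34% of all probe sets were called in either direction. At an unadjusted p under 0.05 by limma there were 1 of 10 genes and 2548 of the 22746 probe sets. The 10 differences were all above 0, with a median of 0.20, against a median of 0.01 over all probe sets, of which 53.1% were positive. ATG8E had the largest: its arrays moved from 8.21, 8.38 and 8.33 at 0 h to 9.14, 9.00 and 9.13 at 6 h without overlap, as did 6.66% of all probe sets in that direction. The difference was 0.79 (SE 0.255, limma adjusted p = 0.144, with block 0.0637), larger than the 0.64 between media at 6 h. ATG8D had a plus Pi difference of 0.61 (SE 0.322), not called without the block (limma adjusted p = 0.557) and called with it (0.0122), the 1 gene of 10 so called, where 6.31% of all probe sets were called in either direction. The other 8 differences lay between 0.01 (ATG8G) and 0.46 (ATG8B). At 1 h and at 24 h against 0 h in plus Pi roots 0 of 10 were called by limma, with or without the block, where 0.356% and 0.497% of all probe sets were called without it and 0.862% and 1.01% with it. At an unadjusted p under 0.05 by limma without the block there were 0 of 10 genes at each time, and 1058 and 805 of the 22746 probe sets.

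Whether the Pi difference at 6 h exceeded that at 0 h was tested directly. The difference of differences was positive in 10 of 10 genes, from 0.26 (ATG7) to 0.93 (ATG8D), with a median of 0.47 against -0.03 over all probe sets. No gene passed by limma, where 1.87% of all probe sets were called in either direction. At an unadjusted p under 0.05 by limma there were 1 of 10 genes and 3460 of the 22746 probe sets. With experiment as a block ATG8D passed (0.93, adjusted p = 0.00655), where 11.6% of all probe sets were called. At 0 h itself no gene and 0 of all probe sets were called by limma in either fit. At an unadjusted p under 0.05 there were 301 probe sets without the block, 920 with it and 780 with a random block, and 0 of the 10 genes in each. Even so, ATG8E and ATG8H had minus Pi arrays above plus Pi arrays at 0 h without overlap, by 0.28 and 0.32, as did 2.37% of all probe sets. The 0.84 of ATG8H at 6 h therefore compares with 0.32 before any time without Pi, and the difference of 0.52 (SE 0.359) between them was not called by limma (adjusted p = 0.555, with block 0.317).

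ATG7 differed in sign between 1 h and 6 h. So did ATG8B, ATG8E, ATG8H and ATG18A, whose differences at 1 h were -0.06, -0.32, -0.24 and -0.01. At 1 h ATG7 read 7.33, 7.57 and 7.56 without Pi and 7.64, 8.06 and 7.82 with Pi. Every minus Pi array of ATG7 thus lay below every plus Pi array, as did 6.48% of all probe sets. The difference was -0.35 (SE 0.108, limma adjusted p = 0.152, with block 0.0524), and -0.31, -0.49 and -0.27 in experiments 1, 2 and 3. At this time 0 of 10 genes were called by limma (1.13% of all probe sets were), and with experiment as a random block ATG7 alone was, as lower (adjusted p = 0.0422, where 1.99% of all probe sets were called lower). Within minus Pi roots ATG7 was 0.39 lower at 1 h than at 0 h, which was called with the block only (limma adjusted p = 0.111, with block 0.0348), where 1.01% of all probe sets were called without it and 3.69% with it.

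The change in the ATG7 difference from 1 h to 6 h was 0.69 (SE 0.152, limma adjusted p = 0.0302), and 0.93, 0.71 and 0.43 in the 3 experiments. It was the 1 call among the 10 genes in this contrast, where 1.47% of all probe sets were called in either direction, and with the block ATG8H also passed (1.08, adjusted p = 0.0399), where 9.05% were. Without experiment 1, 2 or 3 the ATG7 call was lost (limma adjusted p = 0.105, 0.362 and 0.176). It was also lost by limma without 1 of 6 single arrays: minus Pi 1 h of experiment 1 (adjusted p = 0.0687), minus Pi 6 h of experiment 1 (0.0812), plus Pi 1 h of experiment 3 (0.0661) and plus Pi 6 h of experiment 1 (0.0637), 2 (0.0651) or 3 (0.0515). The value stayed between 0.57 and 0.82 throughout these. The change from 1 h to 6 h was above 0 in 10 of 10 genes, with a median of 0.52. Over all probe sets the median was -0.03, and 46.4% were positive. The 9 genes other than ATG7 differed by -0.32 (ATG8E) to 0.18 (ATG8D) between media at 1 h. The change from 0 h to 1 h was called in 0 of 10 genes by limma, with or without the block, where 0.101% and 0.409% of all probe sets were.

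By 24 h most differences between media were smaller than at 6 h. None of the 10 genes was called by limma, where 0.321% of all probe sets were called in either direction. At an unadjusted p under 0.05 by limma there were 1 of 10 genes (ATG8I) and 2007 of the 22746 probe sets. ATG8I read 10.74, 10.69 and 10.88 without Pi against 10.27, 10.38 and 10.48 with Pi. This was a difference of 0.39 (SE 0.134, limma adjusted p = 0.318, with block 0.0523), the same as at 6 h, without overlap, as in 6.62% of all probe sets. ATG8D read 8.34, 8.73 and 8.97 without Pi and 7.48, 8.20 and 8.42 with Pi. Its groups overlapped but each experiment gave a positive difference, with a mean of 0.64 (SE 0.322), called with the fixed block only (limma adjusted p = 0.595, with block 0.0153, with a random block 0.0543), where 4.01% of all probe sets were called in either direction. ATG18A and ATG7 had differences of -0.05 and -0.02.

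ATG8E took the opposite sign at 24 h, at 7.73, 7.58 and 8.56 without Pi against 8.25, 8.42 and 8.57 with Pi. Experiments 1 and 2 were lower without Pi and experiment 3 was level, and the difference of -0.45 (SE 0.255) was not called (limma adjusted p = 0.666, with block 0.338). The change of its Pi difference from 6 h to 24 h was -1.09 (SE 0.361, limma adjusted p = 0.246, with block 0.0922), the largest in size of the 10 genes, where 0 of 10 genes were called under either fit and 0.259% of all probe sets were called by limma (3.23% with the block). From 0 h to 24 h in minus Pi roots 0 of 10 genes were called by limma (2.77% of all probe sets in either direction). ATG8D was called there with the fixed block only (0.56, limma adjusted p = 0.464, with block 0.0145, with a random block 0.0515), where 10.5% of all probe sets were, and against 0 h the change of its Pi difference at 24 h was called with the fixed block only (0.83, limma adjusted p with block = 0.0392, with a random block 0.106), where 1.93% were and 0.127% without it. Without the minus Pi 0 h array of experiment 3 the count from 0 h to 24 h was 1 of 10.

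The fall from 6 h to 24 h was compared after the data had been seen. In minus Pi roots 3 of 10 genes fell, ATG8E, ATG8H and ATG18A, where 5.67% of all probe sets were called lower and 12.7% in either direction, and the median of the 10 was -0.57 against 0.02 over all probe sets. ATG8E fell by 2.22, 1.99 and 1.09 in the 3 experiments, a mean log2 difference of -1.77 (SE 0.255, limma adjusted p = 2.2e-04), or 3.40-fold, and it was called in each alternative run. ATG8H fell by 0.94 (SE 0.254, limma adjusted p = 0.0186) and ATG18A fell by 0.72 (SE 0.177, limma adjusted p = 0.0115). With the block ATG8D (-0.97, adjusted p = 1.1e-04) and ATG8F (-0.47, adjusted p = 0.0295) were called as well, where 11.2% of all probe sets were called lower. ATG8G and ATG8I differed by -0.06 and -0.18. The count of 3 was 1 without experiment 1, 2 or 3 or without the minus Pi 6 h array of experiment 1. The ATG8H call was also lost without the minus Pi 24 h array of experiment 2 (limma adjusted p = 0.0914), and that of ATG18A without the minus Pi 24 h array of experiment 1 (0.0588). In plus Pi roots 0 of 10 were called by limma, where 1.09% of all probe sets were. At an unadjusted p under 0.05 by limma there were 2 of 10 genes and 1828 of the 22746 probe sets. With the block ATG8D was called (-0.87, limma adjusted p = 0.0012), where 3.38% of all probe sets were.

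The same time course was read for the rest of the autophagy machinery, from a list of 31 loci of which 19 had a probe set of their own, and for 13 cargo receptors and upstream regulators, of which 4 had one. Genes that the gene table used here does not give an autophagy name are given by locus only. At 6 h, minus Pi against plus Pi, 6 of the 19 machinery genes were higher and 0 lower, with a median of 0.28, and 9 were higher with the block, where 3.97% and 9.34% of all probe sets were called higher and their median was -0.02. They were AT1G77890 (1.03, SE 0.220, limma adjusted p = 0.00627), ATG18F (1.02), ATG11 (0.85), AT3G53930 (0.73, SE 0.0990, limma adjusted p = 2.2e-04), ATG8A (0.59) and ATG13 (0.48). ATG18F belongs to the same protein family as ATG18A, and ATG11 and ATG13 are partners of the ATG1 kinase that starts autophagosome formation. The count was 3 without experiment 1 and 1 without experiment 2, and 4 without the minus Pi 6 h array of experiment 1 or the plus Pi 6 h array of experiment 2.

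ATG8A, the ninth ATG8 gene, read 10.31, 10.03 and 9.98 without Pi at 6 h and 9.50, 9.46 and 9.60 with Pi, so that its groups were well apart. Its difference of 0.59 (SE 0.150, limma adjusted p = 0.0183) was smaller than that of ATG8D, whose arrays spread more. ATG11 read 8.55, 8.54 and 8.21 against 7.68, 7.38 and 7.70. Among the receptors and regulators, NBR1, which binds both ATG8 and ubiquitinated cargo, was 0.58 higher (SE 0.178, limma adjusted p = 0.0451), at 11.41, 11.34 and 11.60 against 10.91, 10.75 and 10.93. It was the 1 called of 4, and with the block RAPTOR1, a subunit of the TOR kinase complex, was called too (0.29, adjusted p = 0.0331).

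From 0 h to 6 h in minus Pi roots 9 of the 19 machinery genes rose, with a median of 0.41, and 15 with the block, where 8.51% and 15.3% of all probe sets were called higher and their median was -0.02. ATG11 had the largest rise at 1.06 (SE 0.160, limma adjusted p = 1.8e-04), followed by AT1G77890, ATG18F, ATG13, ATG8A and AT3G53930, at 0.84 to 0.59. Without experiment 1 or 2 the count of 9 was 3 or 4, and without the minus Pi 0 h array of experiment 1 it was 4. In plus Pi roots 0 of 19 were called over the same hours, 1 with the block, where 2.34% and 6.31% of all probe sets were called in either direction. In minus Pi roots NBR1 rose by 0.94 and RAPTOR1 by 0.31 (limma adjusted p = 0.0255). Between media at 1 h 0 of 19 and 0 of 4 were called by limma without the block, where 1.13% of all probe sets were. With the block 1 of 19 was called lower, where 2.04% of all probe sets were, and 0 of 4 were called. The median of the 19 at 1 h was -0.08. At 0 h and at 24 h 0 of 19 and 0 of 4 differed between media by limma, with or without the block. Of all probe sets 0% and 0.321% were called at these times without the block, and 0% and 4.01% with it. From 6 h to 24 h without Pi, 7 of 19 and 2 of 4 fell, among them ATG11, by 0.76, and NBR1, by 0.72, where 5.67% of all probe sets were called lower.

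**Figure D3:**
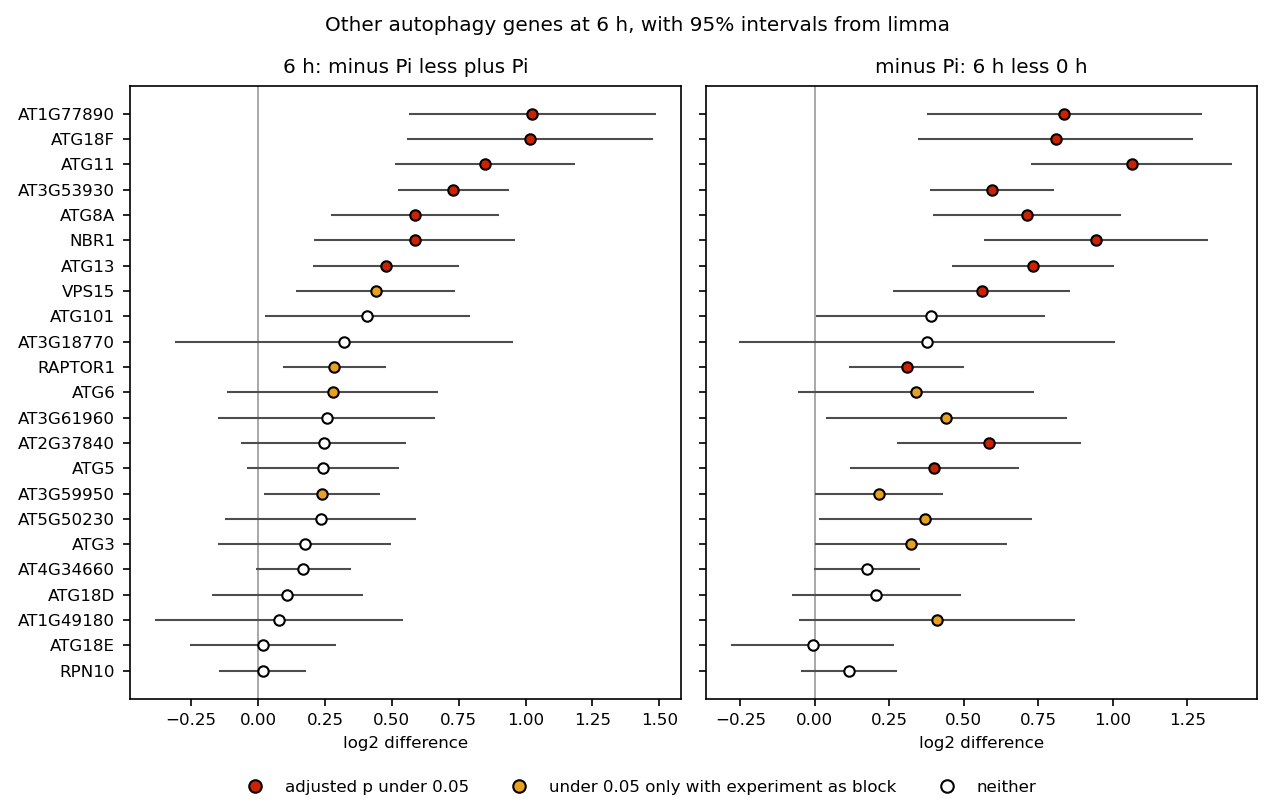
Log2 differences of 19 other autophagy machinery genes and 4 receptors and regulators (rows), with 95% intervals from limma, for minus Pi less plus Pi at 6 h (left) and for 6 h less 0 h in minus Pi roots (right). Red points have an adjusted p under 0.05, orange points only with experiment as a block, and open points neither; 7 of 23 are red on the left and 11 of 23 on the right.

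The profiles of the 10 genes over the 24 arrays, each array taken less the mean of its experiment, were set side by side as a description, since all arrays share the design and the 6 h peak. Pearson r over the 24 arrays ran from 0.25 (ATG8G with ATG7) to 0.89 (ATG8C with ATG8F, and ATG8D with ATG8F) in the 45 pairs. ATG8E lay closest to ATG8H and ATG18A, at 0.85 each, and had 0.66 with ATG8D. In minus Pi roots 0 of 10 genes were higher at 24 h than at 6 h. ATG8E, ATG8H and ATG18A were the 3 called lower without the block, where 5.67% of all probe sets were. ATG8E was farther from ATG8I at 0.40 and ATG8G at 0.30, whose minus Pi levels at 24 h differed least from those at 6 h. ATG7 had r of 0.61 at most, with ATG8H. Within its own protein clade, ATG8E had 0.63 with ATG8F and 0.30 with ATG8G. The share of variance between the 8 groups ran from 30.3% (ATG8G) to 79.2% (ATG8E), and that between experiments from 3.41% (ATG8E) to 39.0% (ATG8C).

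**Figure D4:**
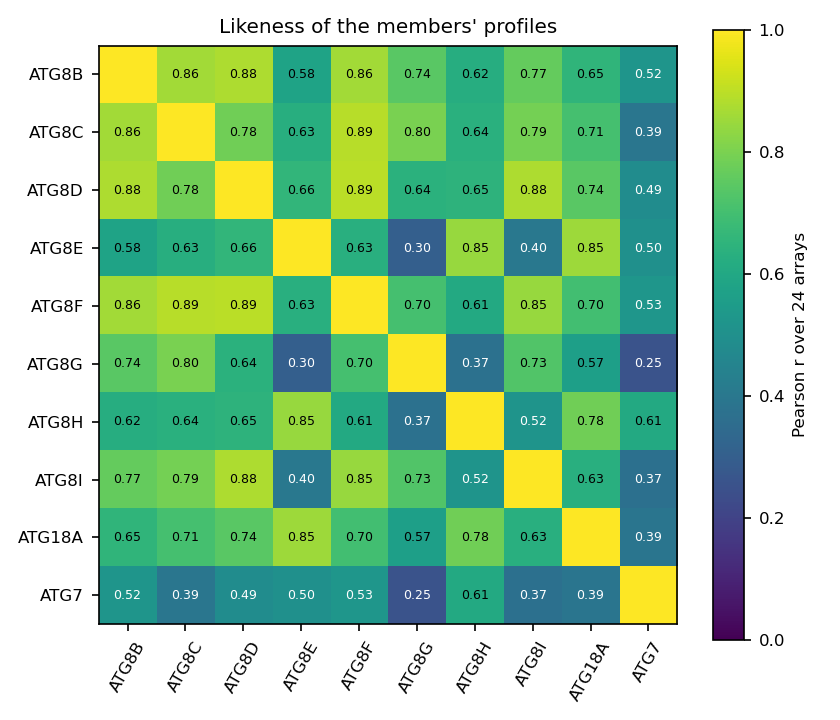
Pearson r between the profiles of each pair of the 10 genes over 24 arrays, each value less its experiment's mean, with the colour scale running from 0 to 1. The lightest off-diagonal cells (0.89) join ATG8C and ATG8D to ATG8F, and the darkest (0.25) joins ATG8G to ATG7.

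Outside the 10 genes, the probe sets most like their mean standardized profile were those of CSY2, a peroxisomal citrate synthase (r = 0.959 over 24 arrays), ACX2, a peroxisomal acyl-CoA oxidase (0.957), PKT3, a peroxisomal thiolase of fatty acid beta-oxidation (0.951), NFU2, a plastid iron-sulfur cluster scaffold (0.949), and AT1G13990 (0.948). For single genes, the 3 nearest to ATG8F were AT5G58800 (0.913), ATG8A (0.912) and NBR1 (0.906). Those of ATG8E were AT2G31810 (0.905), GDH1, a glutamate dehydrogenase (0.904), and AKINBETA1, a regulatory subunit of the SnRK1 kinase (0.898). Among the 3 nearest to other genes were ALDH7B4 for ATG8B (0.940), CFIM-25 for ATG8C (0.892), ARD4 for ATG8G (0.842) and GC1 for ATG8H (0.857). CYSA was among those of ATG8I (0.914), PNG1 of ATG18A (0.913) and ALA2 of ATG7 (0.871). The highest r of any single gene was that of ATG8D with AT1G28260 (0.971).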

How the data were processed

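RNA from roots was measured on 24 one-colour Affymetrix arrays. The deposited value table holds log2 values per probe set (2.61 to 14.2), and the probe summary, normalization and software version behind them are not given in the sources used here beyond limma, per the submitters' processing notes. The authors also deposited a table of Pi contrasts with log2 fold changes, p-values and, as a score per the file headers, F and t statistics; its 6 h log2 differences for the 10 genes equal those computed here within 4.9e-07, and it was used only for the p-values quoted, which appear to be adjusted over probe sets. Every per-sample column was mapped (0 unused).

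Of 22810 probe sets 64 controls were left out. Loci came from the deposited table (4 of the 10 genes) or, where it gave none, from GEO's platform annotation, possibly outdated (6 of 10): 17103 probe sets named 1 gene, 659 several, and 4984 were unnamed. Symbols came from NCBI's table for the TAIR10.1 assembly, which lists AT3G15580 as APG8H with ATG8I as a synonym. Cross-hybridisation between ATG8 genes was not tested.

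R 4.3.3, limma 3.58.1 and statmod 1.5.0 were used: 8 group means on 24 arrays, 16 residual degrees of freedom, empirical Bayes, and Benjamini-Hochberg over 22746 probe sets, with a threshold of 0.05, after the code was tested on simulated data. Groups and the experiment number came from the labels, which say that the experiment was run 3 times, so the number pairs the arrays: deviations from group means correlated at 0.554 on average within an experiment and at 0.228 or more in the 12 pairs compared. The block fit has 14 residual degrees of freedom, and as a random block the correlation was 0.384. Replicate arrays correlated at 0.9503 to 0.992, and 0 pairs were identical. Pooled roots of one run are one sample, and the number of arrays limits the precision. The members, gene lists and tests were chosen with earlier results of these data known, and the comparisons of 24 h with 6 h within a medium were added after the data were seen. Named genes were all 10 members, up to 6 called genes of each list per comparison, ordered by size, and the 5 profiles nearest to the mean. Of the 3 nearest profiles per gene not all are named. A few more from the lists were named after their values were seen. Alternatives were blocks, median centring, quantile normalization, a filter on the lowest 25% of probe sets, a trended robust prior, only the arrays compared, and arrays left out. Promoter and protein sequences were not used here.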

Additional observations from a re-analysis of the deposited data

Results flagged for a closer look

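The difference between minus Pi and plus Pi roots in ATG7 was lower than 0 at 1 h and higher than 0 at 6 h, and the test of the change itself passed the threshold: 0.69 on the log2 scale (SE 0.152, limma adjusted p = 0.0302), positive in 3 of 3 experiments. The call was lost in 12 of 24 alternatives, and over all 24 the limma adjusted p ran from 0.00457 to 0.362. The same change was above 0 in 10 of 10 genes, with a median of 0.52 against -0.03 over all probe sets. It was larger in ATG8H, at 1.08. Groups of 3 arrays are too small for a test of single outlying arrays.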

How the results depend on the processing

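No direction of a called value was reversed under any alternative run, and counts below are of the 10 genes. With experiment as a fixed block (replicate block), minus Pi against plus Pi gave 5 calls at 6 h (1 without) and 1 at 24 h (0 without). The same block gave 1 call (0 without) for 6 h against 0 h in plus Pi roots, for 1 h and for 24 h against 0 h in minus Pi roots, for 24 h against 6 h with Pi, and for the change of the Pi difference from 0 h to 6 h and from 0 h to 24 h; it gave 2 (1 without) for that from 1 h to 6 h and 5 (3 without) for 24 h against 6 h in minus Pi roots. A random block gave 5 at 6 h between media, where 8.62% of all probe sets were called higher. At 1 h between media it gave 1 (1.99% lower). In plus Pi roots it gave 1 for 6 h against 0 h (6.02% in either direction). It gave 1 there for 24 h against 6 h (3.20% in either direction). In minus Pi roots it gave 1 for 1 h against 0 h (3.40% in either direction). It gave 5 there for 24 h against 6 h (10.4% lower). For the change from 0 h to 6 h it gave 1 (10.0% in either direction). For that from 1 h to 6 h it gave 2 (8.04%). In these comparisons either block also called more of all probe sets, and the shares with the fixed block are given above. The block changed no other count by over 1.5 times, and called the 3 further genes named above for 6 h against 0 h in minus Pi roots (10 against 7; 9 with the random block).

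Without the 2 arrays whose scan label ends in _2 (minus Pi at 1 h and 6 h, experiment 3) the count at 6 h between media was 0 and that for 6 h against 0 h in minus Pi roots 3. Fitting only the arrays compared gave 3 for the latter and 0 for the change from 1 h to 6 h. That change also gave 0 with median centring and without the 3 arrays of experiment 2 numbered out of its run, and without those 3 arrays 24 h against 6 h in minus Pi roots gave 1. Leaving out 1 experiment or 1 array gave 0 to 1 at 6 h between media, 1 to 7 for 6 h and 0 to 1 for 24 h against 0 h in minus Pi roots, 0 to 1 for the change from 1 h to 6 h, and 1 to 3 for 24 h against 6 h in minus Pi roots. The called gene at 6 h between media was not always ATG8H. ATG8B and ATG8E, not called in the main fit, each passed in 1 of 18 alternatives (limma adjusted p = 0.0477 and 0.0460). Fewer arrays were fitted in the settings that leave arrays out, and otherwise the cause was not tested. The depth of an array is limited by signal over background, for which no file used here gives a measure.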
